A study of Mus musculus with 9 samples.

Results

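The ubiquitin-specific proteases are the genes named Usp followed by a number, and their transcripts were followed in pooled mouse oocytes at metaphase II (MII), ovulated eggs arrested at the second meiotic division. Protein-coding genes with such a name were taken from the deposited tables, which gave 55 of the 30153 genes of the joined count matrix. Of these, 54 are ubiquitin-specific proteases, and the other, Usp6nl, is a Rab GTPase-activating protein that only shares the name. Usp6nl was at 2.40 ± 0.549 CPM per kb (SD, n = 9) and is left out of the family's summaries, although it stays in the counts of the 55 genes tested. The Y-linked Usp9y was not matched in these tables and was not analysed here.

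All females were 4 weeks old, of mixed genetic background, and carried Sycp3CreERT2/+ and Rosa26nT-nG/+ in all groups. Sycp3CreERT2 is a tamoxifen-inducible Cre tied to the meiotic gene Sycp3, and nT-nG is a reporter that switches from a red to a green nuclear protein after Cre recombination. They received 5 IU of PMSG and, 48 h later, 5 IU of hCG, and eggs were collected 13 h after hCG, stripped of their cumulus with hyaluronidase and hand-picked by green and red fluorescence. The 3 groups, GFP High, GFP Low and RFP, therefore differ in reporter signal and share the genotype and the hormone treatment. All groups carry the Cre allele, and every library is a pool. RFP pools held 88, 87 and 100 eggs, GFP Low pools 49, 52 and 57, and GFP High pools 15, 15 and 16. These numbers are given per group and are not tied here to libraries 1, 2 and 3, and pool size and group cannot be told apart. The labels do not say whether the 3 libraries of a group came from different animals, and the p-values below measure only the spread between these libraries, which may be technical.

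Library totals ran from 19381677 to 27746256 counts. CPM, a gene's counts put on a common library total, was scaled over all 9 libraries with edgeR's TMM factors, and a level per length is CPM divided by the exonic length in kb. That length can be well above the longest transcript of a gene. For Usp29 they are 18078 and 7540 bases, and for Usp33 9675 and 4183. Ranks and ratios between genes per length therefore depend on the annotated length. The oocyte identity was checked on 10 egg genes such as Zp3 and Gdf9: all 10 were detected and their summed level ran from 8713 to 10140 CPM over the 9 libraries, with GFP Low 2 lowest and GFP High 2 highest. Of 12 cumulus and granulosa genes, 6 reached a mean of 1 CPM, and their sum was 15.7 to 59.1 CPM in RFP, 13.1 to 42.2 in GFP Low and 9.08 to 46.8 in GFP High. Cyp19a1 was the highest of them, at 6.85 to 18.1 CPM and at 0 in no library. Of the others, Ptgs2 and Inhba had 0 counts in 1 of 9 libraries, Has2, Cyp11a1, Fshr and Tnfaip6 in 2, Ptx3 in 3, Foxl2 in 4, Inha in 5, Lhcgr in 6 and Amh in 8. The 2 matched blood and immune genes summed to 0.308 to 1.39 CPM. What remaining cumulus RNA adds to the protease levels was not tested, and in pooled eggs fewer contributing cells and less RNA per cell cannot be told apart.

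Ubiquitin is a small protein that is attached to other proteins, often as chains, and that sends many of them to the proteasome. Ubiquitin-specific proteases are cysteine proteases, the largest family of deubiquitinases, which cut ubiquitin off again and so spare, redirect or recycle the modified protein. An MII egg makes almost no new RNA and lives on stored maternal transcripts, and its exit from meiosis at fertilisation depends on ubiquitin-driven destruction of cyclin B and securin.

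CpG-rich promoters were common among the abundant proteases, and 4 promoters are printed to show this and an exception: Usp8 and Usp28 as abundant members, and Usp25 and Usp17la as members close to 0. The windows are the 250 bases before and 50 after the start in the RefSeq table of GRCm38.p6, here all on the plus strand, with every CpG dinucleotide in capitals. Usp8 covers chr2:126707078-126707377 and holds 34 CpG, and Usp28 covers chr9:48985135-48985434 and holds 35. Usp25 covers chr16:77013819-77014118, inside the gene as annotated in the tables, and holds 54. Usp17la covers chr7:104856766-104857065 and holds 1.
Usp8: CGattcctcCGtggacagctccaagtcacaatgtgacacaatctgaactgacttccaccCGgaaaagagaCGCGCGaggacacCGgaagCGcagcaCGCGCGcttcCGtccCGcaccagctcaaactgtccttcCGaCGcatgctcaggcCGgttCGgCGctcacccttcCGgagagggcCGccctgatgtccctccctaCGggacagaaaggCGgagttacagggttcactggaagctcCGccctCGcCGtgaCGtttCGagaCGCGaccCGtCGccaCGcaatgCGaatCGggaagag
Usp28: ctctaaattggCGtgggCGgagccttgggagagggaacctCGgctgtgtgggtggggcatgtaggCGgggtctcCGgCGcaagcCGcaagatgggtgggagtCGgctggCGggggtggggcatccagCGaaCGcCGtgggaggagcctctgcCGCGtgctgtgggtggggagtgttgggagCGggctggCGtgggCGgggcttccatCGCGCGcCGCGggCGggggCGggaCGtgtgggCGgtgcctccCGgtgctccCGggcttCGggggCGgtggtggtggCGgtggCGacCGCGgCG
Usp25: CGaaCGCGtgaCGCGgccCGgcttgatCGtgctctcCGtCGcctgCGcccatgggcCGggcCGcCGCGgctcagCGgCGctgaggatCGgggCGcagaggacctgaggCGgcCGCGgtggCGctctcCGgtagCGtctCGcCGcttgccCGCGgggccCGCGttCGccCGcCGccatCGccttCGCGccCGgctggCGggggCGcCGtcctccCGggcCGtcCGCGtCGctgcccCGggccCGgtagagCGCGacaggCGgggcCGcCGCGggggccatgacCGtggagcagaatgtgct
Usp17la: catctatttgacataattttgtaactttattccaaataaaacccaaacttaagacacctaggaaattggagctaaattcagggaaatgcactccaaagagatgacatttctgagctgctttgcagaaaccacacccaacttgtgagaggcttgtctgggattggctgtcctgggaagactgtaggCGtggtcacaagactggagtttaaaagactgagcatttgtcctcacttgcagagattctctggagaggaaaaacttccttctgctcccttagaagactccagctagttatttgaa

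Of the 54 proteases, 41 had an entry in the promoter table. Their median was 25 CpG in the 300-base window, against 7 over all 32851 promoters of the table, and 29 of 41 (70.7%) held 15 CpG or more, against 34.6% of all promoters. Among the 30 proteases with a mean of 10 CPM or more, 25 (83.3%) were this CpG-rich, with a median of 27.5. Among the 11 below 10 CPM, 4 (36.4%) were, with a median of 5. The 4 low but CpG-rich genes were Usp25 with 54, Usp12 with 37, Usp13 with 36 and Usp35 with 30 CpG. The printed pair Usp28 and Usp25 are close relatives that both have CpG-rich windows, yet their levels stood 228-fold apart. The genes below 10 CPM include the related copies Usp17la, Usp17lb, Usp17lc and Usp17ld, with 1, 1, 1 and 0 CpG, which lower that share. All promoters of the table, 32851 for 27025 genes, were not split by level. Whether the share among abundant proteases differs from that of other abundant genes is therefore not known. The shares describe these windows and were not tested.

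**Figure D1:**
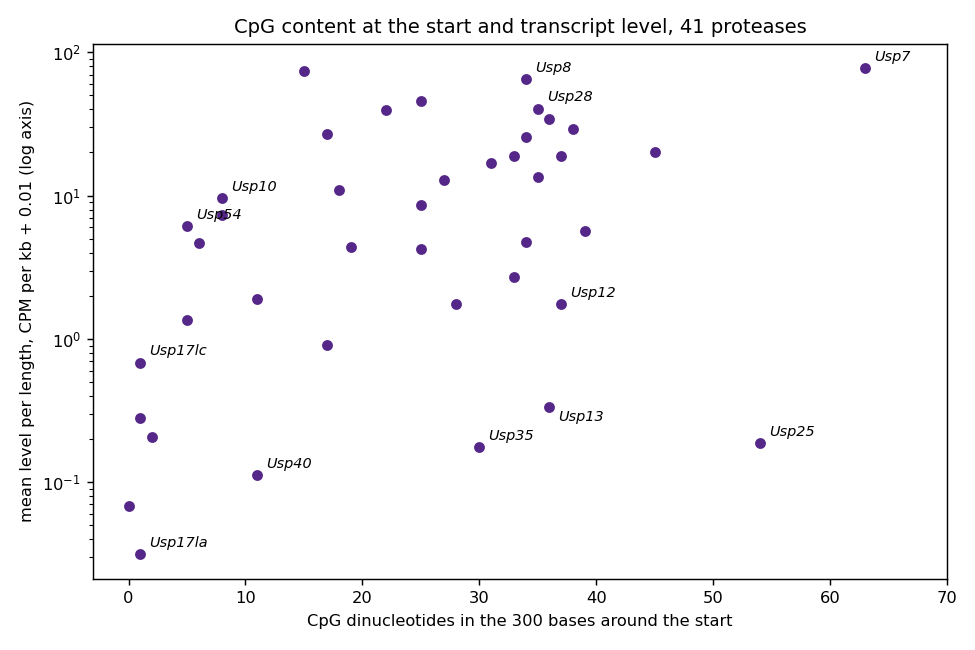
CpG dinucleotides in the 300-base RefSeq promoter window (horizontal) against the mean level over the 9 libraries in CPM per kb with 0.01 added, on a log axis (vertical), 1 point for each of the 41 proteases with an entry. Of the 30 proteases of 10 CPM or more, 25 lie at 15 CpG or more, and Usp25 lies apart with 54 CpG and a level of 0.177 CPM per kb.

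Short motifs were searched on both strands of the same windows. The TATA-box letters TATAAA were in 5 of 41 protease promoters (12.2%, against 13.6% of all promoters), namely Usp17lb, Usp17lc, Usp17ld, Usp40 and Usp19, and the first 4 of these are below 10 CPM. CCAAT was in 13 of 41 (31.7%, against 37.4%), and the E-box form CANNTG in 26 (63.4%, against 72.3%). One case of that form, CACGTG, was in 4 (9.76%, against 7.15%), Usp16, Usp31, Usp32 and Usp4. TAATTG was in 0 of 41, against 8.0% of all promoters. A match is only a match of letters.

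Most of the family was present in the egg's poly-A RNA. Since the libraries hold poly-A RNA, tail length can enter a level, and the amount stored was not measured apart from it. A mean of 100 CPM or more was reached by 19 of 54 proteases, 10 to 100 CPM by 21, 1 to 10 CPM by 5 and less than 1 CPM by 9. In all, 83.3% reached 1 CPM, against 60.1% of all 18481 protein-coding genes, and the median level per length was 6.06 CPM per kb, against 0.844. The upper 10% of protein-coding genes by level per length held 11 of the 54, and the upper 25% held 26. A small number of genes carried most of it: the 5 highest held 40.3% of the summed level per length and the 12 highest 70.3%.

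**Figure D2:**
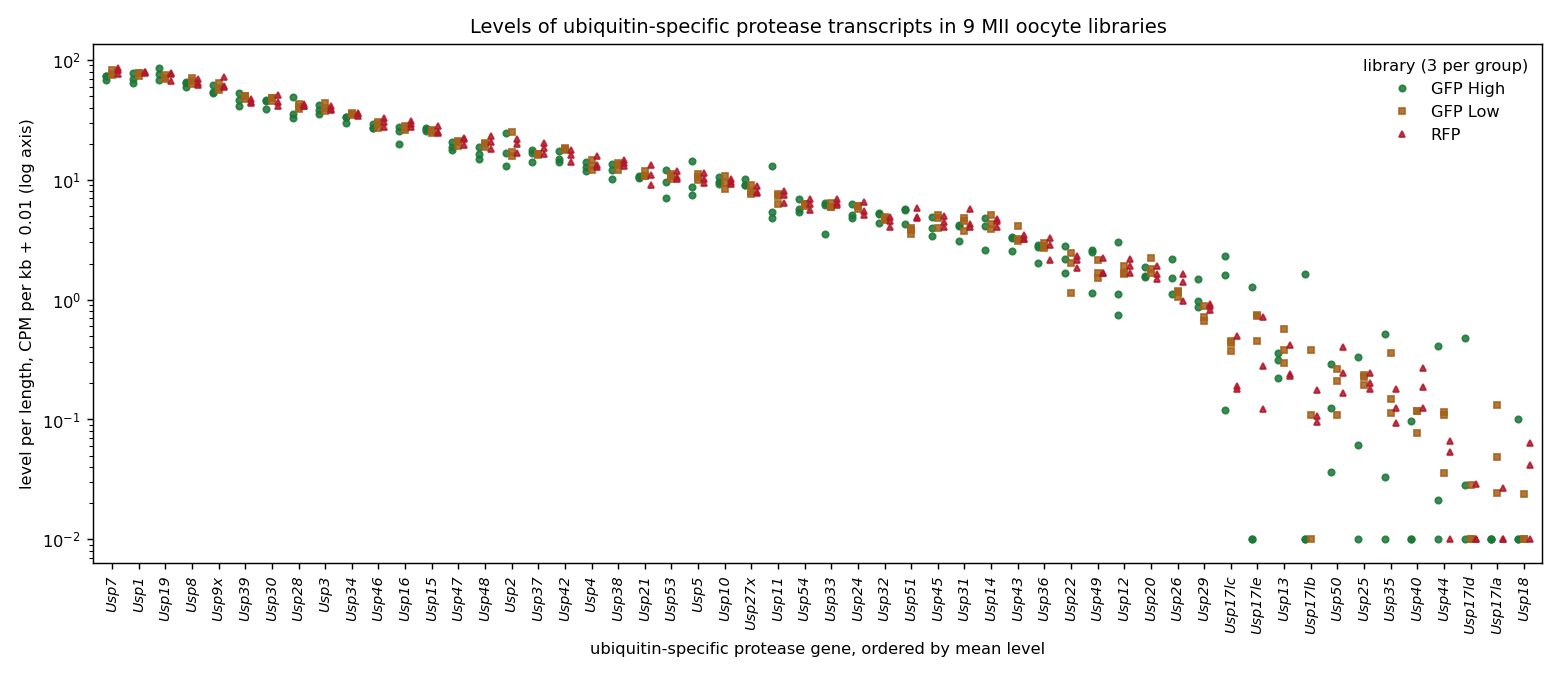
Level of each of the 54 proteases in CPM per kb with 0.01 added, on a log axis, 1 point for each of the 9 libraries by group, with the genes ordered by their mean. The libraries of the highest genes lie close together, from Usp7 at a mean of 77.4 CPM per kb downwards, and those of the lowest spread widely, with points at 0.01 where a library had 0 counts.

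At the top stood Usp7, Usp1 and Usp19, whose ranges over the libraries overlapped. Usp7 (chr16:8689595-8792308), which acts on Mdm2 and p53 and on chromatin regulators, was at 77.4 ± 5.45 CPM per kb. It had 642, 598 and 671 CPM in RFP 1, 2 and 3, 636, 596 and 582 in GFP Low 1, 2 and 3, and 576, 532 and 574 in GFP High 1, 2 and 3. All 3 GFP High values lay below the other 6, and GFP Low and RFP overlapped. Usp1 (chr4:98923810-98935543) removes ubiquitin from FANCD2 and PCNA in DNA repair and was at 75.2 ± 5.28 CPM per kb. It had 291, 295 and 297 CPM in RFP 1, 2 and 3, 273, 294 and 288 in GFP Low 1, 2 and 3, and 258, 240.1 and 289 in GFP High 1, 2 and 3. Here too GFP High lay below RFP, while GFP Low overlapped with both. A processed pseudogene, Gm5841, is 97.9% identical over 60.9% of the Usp1 transcript and had 0.644 CPM, so some reads between them are uncertain. Usp19 (chr9:108490602-108502337), a protease anchored in the endoplasmic reticulum, was at 74.1 ± 6.13 CPM per kb. Usp19 was at 536, 469 and 553 CPM in RFP 1, 2 and 3, 498, 486 and 533 in GFP Low 1, 2 and 3, and 479, 538 and 605 in GFP High 1, 2 and 3, and its groups overlapped.

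Usp8 (chr2:126707328-126759297), whose promoter is printed above, works at endosomes with the ESCRT machinery and was at 65.0 ± 3.44 CPM per kb. Its values were 292, 259 and 269 CPM in RFP 1, 2 and 3, 267, 295 and 278 in GFP Low 1, 2 and 3, and 272, 249.8 and 273 in GFP High 1, 2 and 3, among the steadiest of the family. Usp9x (chrX:13071498-13173328), a very large X-linked protease needed in early mouse development, was at 60.2 ± 6.06 CPM per kb, which its length turns into the most reads of any member. It had 899, 916 and 1095 CPM in RFP 1, 2 and 3, 973, 885 and 840.1 in GFP Low 1, 2 and 3, and 939, 793 and 819.5 in GFP High 1, 2 and 3. The single highest value was that of RFP 3, and the groups overlapped. Usp8 and Usp9x overlapped in level per length, and both means lay below those of the top 3 by more than the SD of Usp8.

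The next 7 levels per length stepped down with no wide gap. Usp39, a spliceosome protein of the family that lacks protease activity, was at 47.0 ± 3.51 CPM per kb. Usp30, the mitochondrial outer-membrane protease that opposes Parkin, was at 45.5 ± 3.62. Usp28, a DNA-damage protease that stabilises Myc, was at 40.5 ± 4.61, and Usp3, which acts on ubiquitinated histones, at 39.6 ± 2.56. These 4 form 2 neighbouring pairs, each closer than its SD. Usp34, which acts on axin in Wnt signalling, followed at 34.3 ± 2.02, Usp46, which works with Wdr48 and Wdr20, at 29.0 ± 1.89, and Usp16, a histone H2A deubiquitinase of the cell cycle, at 26.8 ± 3.08 CPM per kb.

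By role, the endosomal, membrane and signalling proteases held the most, 30.9% of the family's summed level per length in 12 genes, of which 11 reached 1 CPM and 6 reached 100 CPM. The 11 proteases of chromatin and the nucleolus held 21.9%, led by Usp7, and 10 of them reached 10 CPM. All 6 DNA-damage proteases reached 10 CPM and together held 18.9%, with Usp47 at 20.2 and Usp48 at 19.0 CPM per kb after Usp1 and Usp28. The 4 genes for free ubiquitin, the proteasome and the endoplasmic reticulum held 10.2%, most of it Usp19. Usp5, which takes apart unanchored ubiquitin chains, was at 10.4 ± 1.9 CPM per kb. Usp14, the protease bound to the proteasome, was counted at 4.22 ± 0.728, but 26.0% of its exonic bases are shared with Thoc1 on the other strand, which had 154 CPM. Whether the authors' counting used strand is not given in the sources used here, so Usp14 reads are uncertain.

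Cell-cycle and splicing members, 4 genes, held 8.2%. Among them Usp37, which stabilises cyclin A, was at 16.9 ± 1.66 CPM per kb. The 2 mitochondrial proteases held 5.23%, of which Usp30 was nearly all, since Usp35 was at 0.165. The 6 less studied members held 4.24%, led by Usp38 at 12.9 and Usp53 at 10.4. Usp40 was the exception among them at 0.102. The germline, sex-linked or imprinted members were the low end: 8 of 9 listed were matched, 3 reached 1 CPM and together they held 0.451%. Usp26, an X-linked testis gene, was at 1.34 CPM per kb, and Usp29, an imprinted gene of the Peg3 domain expressed from the paternal allele, at 0.903. Usp18, which removes the ubiquitin-like protein ISG15 and is induced by interferon, held 0.00241% of the sum.

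The near-silent members showed their levels in counts. Usp18 had 0, 2 and 4 counts in RFP 1, 2 and 3, 0, 1 and 0 in GFP Low 1, 2 and 3, and 7, 0 and 0 in GFP High 1, 2 and 3. Usp44, which acts on the anaphase-promoting complex's activator Cdc20 in the spindle checkpoint, had 6, 4 and 0 counts in RFP 1, 2 and 3, 2, 11 and 11 in GFP Low 1, 2 and 3, and 0, 40 and 1 in GFP High 1, 2 and 3. Of its total, most came from GFP High 2. Usp25 (chr16:77013706-77116780) had 32, 20 and 27 counts in RFP 1, 2 and 3, 23, 25 and 31 in GFP Low 1, 2 and 3, and 46, 0 and 6 in GFP High 1, 2 and 3. It was thus detected in all 6 GFP Low and RFP libraries at 20 to 32 counts, and in GFP High it went from 0 to 46. Detection was set at more than 3 counts, which covers counting error only, and no member stayed at or under it in every library.

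The Usp17-like genes, a cluster on chromosome 7 of cytokine-induced proteases of blood cells in its best known members, showed the same feature more strongly. Usp17lc (chr7:103415072-103419880) had 11, 27 and 12 counts in RFP 1, 2 and 3, 21, 23 and 29 in GFP Low 1, 2 and 3, and 108, 139 and 6 in GFP High 1, 2 and 3. GFP High 1 and 2 held its 2 highest counts and GFP High 3 its lowest. Usp17le had 14, 32 and 6 counts in RFP 1, 2 and 3, 17, 38 and 40 in GFP Low 1, 2 and 3, and 0, 0 and 56 in GFP High 1, 2 and 3, and Usp17lb 4, 3 and 7 counts in RFP 1, 2 and 3, 3, 0 and 16 in GFP Low 1, 2 and 3, and 0, 0 and 57 in GFP High 1, 2 and 3. Both were at 0 in GFP High 1 and 2 and at their highest in GFP High 3, the reverse of Usp17lc. Usp17ld had 0, 0 and 1 counts in RFP 1, 2 and 3, 0, 0 and 1 in GFP Low 1, 2 and 3, and 1, 0 and 21 in GFP High 1, 2 and 3, with nearly all its counts in GFP High 3. Usp17la had 0, 1 and 0 counts in RFP 1, 2 and 3, 2, 1 and 9 in GFP Low 1, 2 and 3, and 0, 0 and 0 in GFP High 1, 2 and 3. The transcripts of Usp17lc and Usp17ld are 97.8% identical over 82.7% of that of Usp17lc, so reads between these copies are uncertain.

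Within sets of related proteases the level of 1 member lay far above that of the other in several cases. Each of the 20 pairs set the highest member of a set against another member. In all 20 that member was higher in 9 of 9 libraries, on levels per length. It was picked by its mean over the same libraries, and pairs among the lower members were not formed. Their order was not always kept: in GFP High 3 Usp11 was at 13.0 CPM per kb and Usp4 at 11.8. Usp8 stood 333-fold above Usp50, a little studied relative at 0.196 CPM per kb, with library ratios of 156 to 2282. Usp28 stood 228-fold above Usp25, with ratios of 102 to 949 in the 8 libraries where Usp25 had counts. Usp38 was 78.2-fold above Usp35, and Usp49, a histone H2B deubiquitinase, 22.9-fold above Usp44. Usp25, Usp35 and Usp44 were at 0 counts in 1, 1 and 2 libraries in turn, where the ratio is not defined. Usp49 shares 51.2% of its exonic bases with Gm20517 on the same strand, which was counted at 0.0532 CPM, so reads of Usp49 are uncertain.

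Usp5 was 31.7-fold above Usp13, its relative in chain disassembly, with ratios of 19.0 to 44.4. Usp46 was 16.6-fold above Usp12, which uses the same WD-repeat partners, with ratios of 8.97 to 39.5. Usp37 was 18.7-fold above Usp29 and 12.6-fold above Usp26. A middle group lay between 3 and 7: Usp42 over the nucleolar Usp36 6.15-fold, Usp16 over Usp45 6.11-fold, Usp34 over Usp24 6.04-fold, Usp7 over Usp47 3.83-fold, Usp15 over Usp11 3.52-fold and Usp33 over Usp20 3.44-fold. Some relatives were at similar levels per length. Usp15 was 1.93-fold above Usp4, Usp2 1.74-fold above Usp21, Usp53 1.69-fold above Usp54 and Usp31 1.31-fold above Usp43, the closest pair. That closeness depends on the exonic lengths, 10304 bases for Usp31 and 4745 for Usp43, since their CPM were 43.95 and 15.48.

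Usp22, Usp27x and Usp51 are related proteases that remove ubiquitin from histone H2B together with Atxn7l3 and Eny2. Usp22 does so within the SAGA coactivator, to which Atxn7 anchors it, and Usp27x and Usp51 outside it. In the egg the order was Usp27x at 8.60 ± 0.879, Usp51 at 4.69 ± 0.864 and Usp22 at 2.05 ± 0.479 CPM per kb. Usp22 was thus the lowest, 4.20-fold below Usp27x. Of the partners, Atxn7l3 was at 0.0664 CPM per kb, Eny2 at 3.59 and Atxn7 at 9.67.

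**Figure D3:**
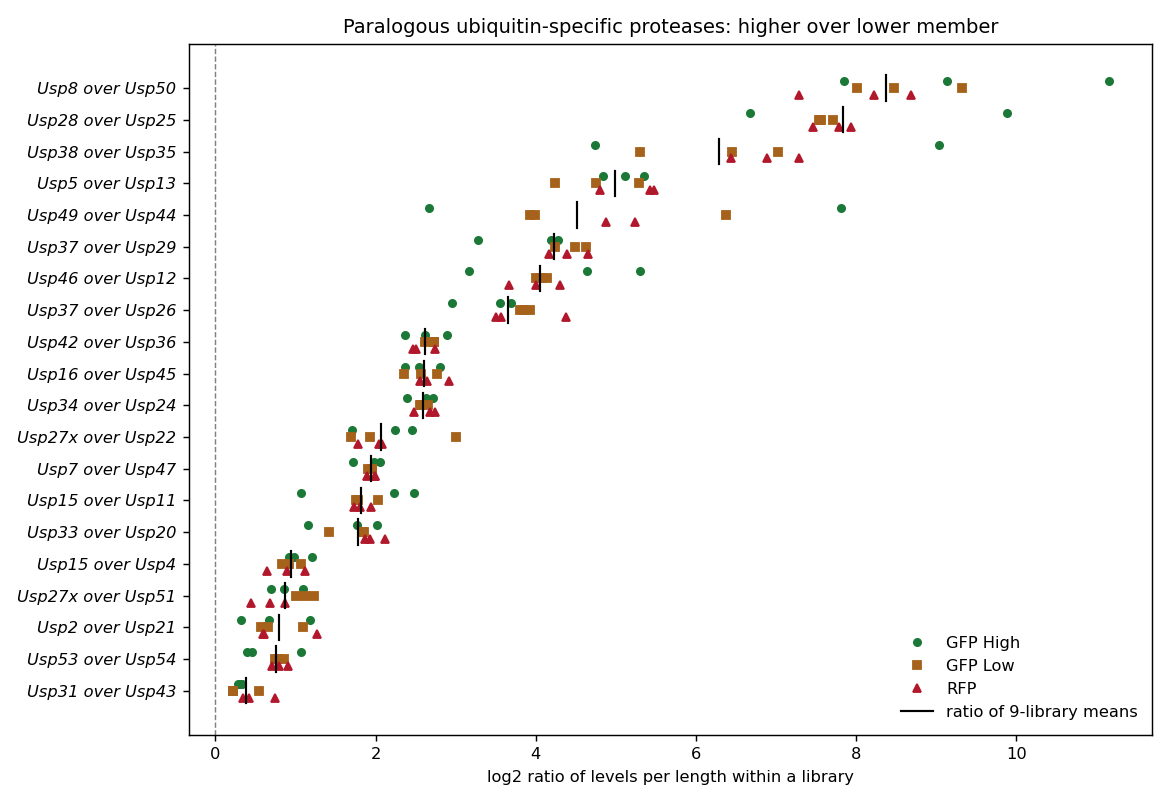
Log2 ratio of the levels per length of 2 related proteases, the highest member of a set by its mean over another member. Each library is 1 point, drawn by group, and a bar gives the ratio of the means over the 9 libraries. Libraries with 0 counts of the lower gene are not drawn. All points lie to the right of 0, from 333-fold for Usp8 over Usp50 at the top to 1.31-fold for Usp31 over Usp43 at the bottom.

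Levels of other partners differed widely. Wdr20, which activates Usp12 and Usp46, was at 89.9 ± 6.46 CPM per kb, and Wdr48, the partner of Usp1, Usp12 and Usp46, at 6.92 ± 0.653. G3bp2, a partner of Usp10, was at 99.7 ± 5.79 and G3bp1 at 4.52 ± 0.384. Among deubiquitinases of other families, 34 of 38 listed names were matched. Those not matched were Otud6a and the older names Fam63a, Fam63b and Zufsp of the matched Mindy1, Mindy2 and Zup1. Uchl1, known for its abundance in neurons and eggs, led with 579 ± 57.1 CPM per kb, above every Usp gene. Otub1 was at 124 ± 11.2, and Ubb, which encodes ubiquitin itself, at 641 ± 98.2.

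Across the reporter groups the family's transcripts did not differ detectably. After the low-count filter 50 of the 55 genes were tested between GFP High and RFP, and 0 passed an adjusted p of 0.05 (edgeR quasi-likelihood, Benjamini-Hochberg over all 14829 genes tested), where 0.0135% of all genes did. At an unadjusted p under 0.05, 0 of 50 passed, against 4.09% of all genes (2.27% higher and 1.81% lower in GFP High). Between GFP Low and RFP, 0 of 50 passed the adjusted threshold, against 0.0197% of 15199 genes, and 1 of 50 the unadjusted one, against 2.62% (1.28% higher and 1.34% lower in GFP Low). Between GFP High and GFP Low, 0 of 51 passed the adjusted threshold, against 0% of 14785 genes, and 0 the unadjusted one, against 3.77% (1.85% higher and 1.92% lower in GFP High). DESeq2 on the same counts also called 0 members in each comparison at the adjusted threshold and 1 in each at the unadjusted one. The unadjusted counts rested on GFP High 3: without it 8 of 50 members passed the unadjusted threshold against RFP, where 11.3% of all genes did, and 9 of 51 against GFP Low, where 10.2% did, while 0 passed the adjusted one. By direction, 7 were lower and 1 higher in GFP High against RFP, and 7 lower and 2 higher against GFP Low. The shares of all genes by direction were not taken for these fits. The lean to lower values is therefore not a result about the members, and those named next were picked after the values were seen. Among both sets, Usp28, Usp48, Usp11, Usp53, Usp40 and Usp17le were lower in GFP High and Usp17lc was higher. For Usp40 and Usp17le the remaining GFP High libraries were at 0 counts. Without RFP 2 or GFP High 1 the count against RFP was 2, against 2.76% and 9.78% of all genes in turn. Against GFP Low it was 2 without GFP High 1, where 9.33% of all genes passed. For GFP Low against RFP it was 2 without RFP 2 or RFP 3, against 3.19% and 3.64% of all genes. There it was 0 without GFP Low 1 or GFP Low 3, against 4.5% and 2.71%. Usp17la, Usp17lb, Usp17ld and Usp18 failed the filter in all comparisons, and Usp44 in both with RFP. In the authors' deposited table, too, 0 members had an adjusted p under 0.05 in any comparison, and 1 member in each had an unadjusted p under 0.05: Usp17lc for GFP High against RFP, Usp51 for GFP Low against RFP and Usp29 for GFP High against GFP Low. The share of all genes was not taken from the authors' values.

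For the abundant members the intervals were narrow. The 12 highest proteases had log2 differences of -0.25 to 0.07 between GFP High and RFP, -0.10 to 0.13 between GFP Low and RFP and -0.15 to 0.11 between GFP High and GFP Low, and none of their 95% intervals went beyond -0.53 or 0.33. The 95% interval stayed within 2-fold for 41 of 50 members (82%, against 50.3% of all genes tested) between GFP High and RFP, for 43 of 50 (86%, against 65.7%) between GFP Low and RFP and for 38 of 51 (74.5%, against 50.3%) between GFP High and GFP Low. Between GFP High and RFP, 18 were higher and 32 lower in GFP High, with a median log2 difference of -0.056, against -0.0056 over all genes. GFP Low against RFP had 20 higher and 30 lower and a median of -0.023, against -0.0041. GFP High against GFP Low had 15 higher and 36 lower and a median of -0.075, against -0.0048. The comparisons share libraries, so these counts are not separate evidence.

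**Figure D4:**
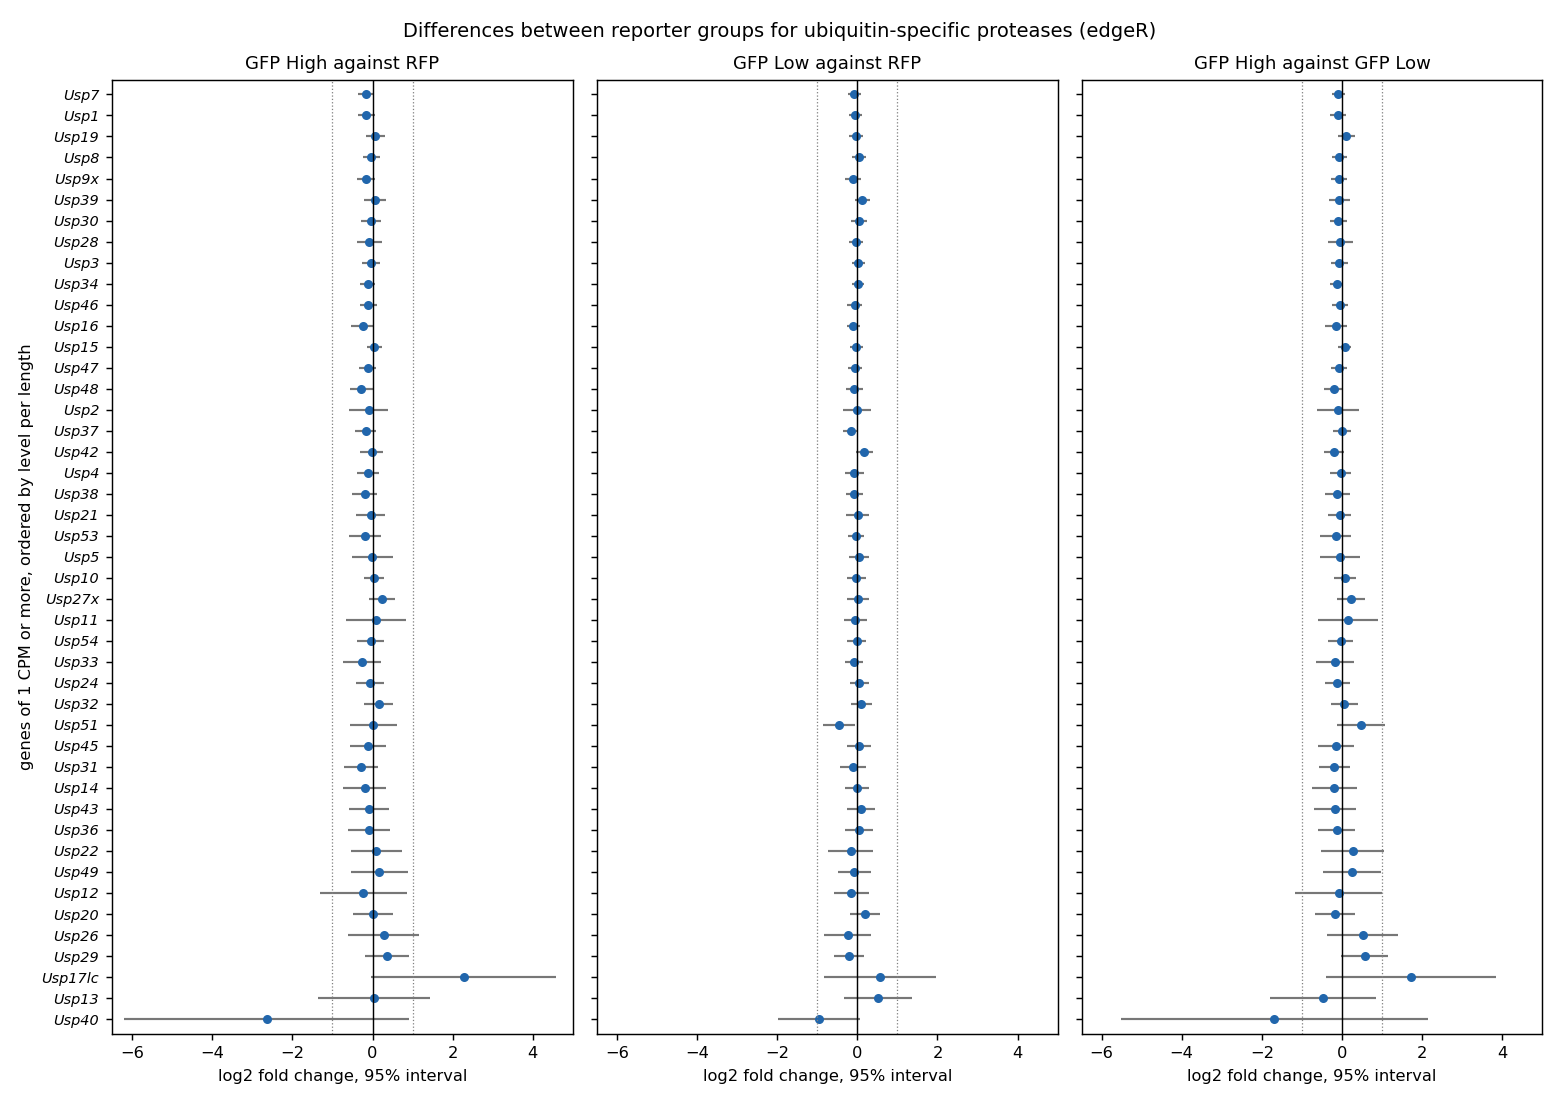
Log2 differences of the 45 proteases of 1 CPM or more in the 3 comparisons, with points for the fitted value, bars for the 95% interval and dotted lines at a 2-fold difference. The bars are short for the abundant genes at the top and long for those with few counts at the bottom, such as Usp17lc and Usp40.

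In the comparison of GFP High with RFP the libraries of the groups did not overlap for 5 of 50 members, against 12.1% of all genes tested, so the members' share is near the background. By direction, 1 member, Usp27x, lay higher in GFP High, against 4.6% of all genes, and 4, Usp7, Usp1, Usp34 and Usp40, lay lower, against 7.49%. These genes, like those named for their spread, were chosen after their values were seen. Usp7 differed by -0.17 (SE 0.08, 95% interval -0.35 to 0.01) on the log2 scale (unadjusted p = 0.0664, adjusted p = 0.997). Usp34 had 652, 627 and 671 CPM in RFP 1, 2 and 3, 660.4, 659 and 646 in GFP Low 1, 2 and 3, and 612, 549.9 and 614 in GFP High 1, 2 and 3. Its values in GFP High all lay below those of both other groups, with a log2 difference from RFP of -0.12 (SE 0.08, 95% interval -0.30 to 0.06), unadjusted p = 0.175, adjusted p = 0.997. Some reads of Usp34 are uncertain, since 11.6% of its exonic bases are shared with Ahsa2 on the other strand, at 24.2 CPM.

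Usp27x was at 32.9, 34.0 and 37.8 CPM in RFP 1, 2 and 3, 32.6, 33.7 and 38.6 in GFP Low 1, 2 and 3, and 38.9, 43.8 and 39.0 in GFP High 1, 2 and 3. The GFP High values were the highest 3 of the 9, with a log2 difference from RFP of 0.23 (SE 0.15, 95% interval -0.10 to 0.57), unadjusted p = 0.149, adjusted p = 0.997. Usp40 (chr1:87945119-88008551) had 55, 31 and 82 counts in RFP 1, 2 and 3, 25, 33 and 22 in GFP Low 1, 2 and 3, and 0, 0 and 23 in GFP High 1, 2 and 3. It had 0 counts in 2 GFP High libraries and most counts in RFP, and the fitted log2 difference of GFP High from RFP was -2.64 (SE 1.60, 95% interval -6.21 to 0.92), unadjusted p = 0.129, adjusted p = 0.997. The exons of Usp40 touch those of Dgkd on the other strand over 0.522% of their bases, and Dgkd had 132 CPM. Usp17lc, whose counts are given above, had the largest difference upwards among members of 1 CPM or more, 2.27 (SE 1.03, 95% interval -0.04 to 4.58), unadjusted p = 0.053, adjusted p = 0.997.

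Between GFP Low and RFP, groups did not overlap for 3 of 50 members, against 7.72% of all genes. By direction, 1, Usp39, lay higher, against 3.5% of all genes, and 2, Usp51 and Usp40, lay lower, against 4.22%. Usp51 (chrX:153006469-153009416), the relative of Usp22, was at 10.5, 12.8 and 10.7 CPM in RFP 1, 2 and 3, 7.76, 8.63 and 8.45 in GFP Low 1, 2 and 3, and 12.4, 12.4 and 9.40 in GFP High 1, 2 and 3. The 3 GFP Low values lay below the other 6. Its mean CPM were 11.4 ± 1.28 in RFP, 8.28 ± 0.464 in GFP Low, 11.4 ± 1.74 in GFP High (SD, n = 3 each). The log2 difference of GFP Low from RFP was -0.45 (SE 0.19, 95% interval -0.85 to -0.05), unadjusted p = 0.0321, adjusted p = 1.00 (edgeR), past the unadjusted threshold and not past the adjusted one. Usp39 was at 115, 108 and 109 CPM in RFP 1, 2 and 3, 116, 123 and 123 in GFP Low 1, 2 and 3, and 129, 102 and 112 in GFP High 1, 2 and 3. Its GFP Low values were above all RFP values, with a log2 difference of 0.13 (SE 0.08, 95% interval -0.05 to 0.31), unadjusted p = 0.148, adjusted p = 1.00. Usp40 was at -0.96 (SE 0.47, 95% interval -1.98 to 0.07), unadjusted p = 0.0642, adjusted p = 1.00. Usp13, whose groups overlapped, was at 0.51 (SE 0.39, 95% interval -0.338 to 1.365), unadjusted p = 0.214 (edgeR).

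Between GFP High and GFP Low, groups did not overlap for 5 of 51 members, against 11.7% of all genes. By direction, 2, Usp51 and Usp27x, lay higher in GFP High, against 4.49% of all genes, and 3, Usp34, Usp42 and Usp7, lay lower, against 7.22%. Usp42, which acts on p53 and on histone H2B, was at 99.9, 88.6 and 111 CPM in RFP 1, 2 and 3, 112, 111 and 116 in GFP Low 1, 2 and 3, and 93.3, 88.6 and 109.5 in GFP High 1, 2 and 3. Its log2 difference was -0.21 (SE 0.11, 95% interval -0.46 to 0.05), unadjusted p = 0.102, adjusted p = 0.998. The imprinted Usp29 was at 14.5, 16.6 and 15.8 CPM in RFP 1, 2 and 3, 15.8, 11.9 and 12.9 in GFP Low 1, 2 and 3, and 17.5, 26.5 and 15.5 in GFP High 1, 2 and 3. GFP High 2 was its highest library, the groups overlapped at GFP High 3 and GFP Low 1, and the log2 difference was 0.56 (SE 0.26, 95% interval -0.03 to 1.15), unadjusted p = 0.0587, adjusted p = 0.998. Without GFP High 2 that difference was 0.29. Usp17le, counted in GFP High 3 alone among the GFP High libraries, had a fitted value of -0.58 (SE 1.72, 95% interval -4.40 to 3.23). The largest difference among members of 1 CPM or more was that of Usp17lc, 1.71 (SE 0.95, 95% interval -0.41 to 3.83), unadjusted p = 0.102, adjusted p = 0.998 (edgeR).

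By role the counts were alike in that 0 members of any role were called. All 6 DNA-damage proteases and all 6 less studied ones had fitted differences below 0 between GFP High and RFP, with medians of -0.12 and -0.19 on the log2 scale. Against GFP Low both sets again had 6 of 6 below 0, with the same GFP High libraries. Both mitochondrial members also lay below 0 there, and every other role tested had members on both sides. Against RFP the chromatin members had 4 above 0 and 6 below, and the endosomal, membrane and signalling ones 4 and 8. The germline, sex-linked or imprinted members had 4 above and 1 below, with a median of 0.27. The remaining roles tested were split evenly. Roles with all members below 0 were singled out after the values were seen, and genes of the same libraries are not replicates. Over all genes tested, 49.3% lay above 0 against RFP and 49.4% against GFP Low. The median over all genes tested lay at -0.0056 and -0.0048 in these comparisons. Of the other deubiquitinases, the partners and the ubiquitin genes, 0 were called in any comparison. At the unadjusted threshold, 2 of 32 other deubiquitinases and 1 of 10 partners passed between GFP High and RFP, against 4.09% of all genes. They were Uchl1 at 0.22 on the log2 scale (edgeR, unadjusted p = 0.0483), Atxn3 at -0.49 (unadjusted p = 0.0313) and Eny2 at 0.58 (unadjusted p = 0.0167), each with an adjusted p of 0.997. Between both GFP groups 1 of 32 and 1 of 10 passed, against 3.77%. These were Atxn3 at -0.59 (edgeR, unadjusted p = 0.0135) and Eny2 at 0.63 (unadjusted p = 0.0105), each with an adjusted p of 0.998. For GFP Low against RFP 0 of 33 and 1 of 10 passed, against 2.62%. It was Stam, at -0.50 (edgeR, unadjusted p = 0.0395, adjusted p = 1.00). Of the 5 ubiquitin genes 0 passed in any comparison.

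Summed over the 54 proteases, the level per length was 897 ± 42.3 CPM per kb in RFP, 881 ± 11.6 in GFP Low and 843 ± 49.0 in GFP High (SD, n = 3 each). The groups' ranges were described and not tested, and RFP 3 was the highest library. As a share of all counts the family took 0.713% ± 0.0372, 0.692% ± 0.0109 and 0.663% ± 0.0393 in turn.

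The spread between replicates had its highest median in GFP High, the group of the smallest pools. Over the 40 proteases of 10 CPM or more the median coefficient of variation was 8.81% in RFP, 5.3% in GFP Low and 11.9% in GFP High, where all 7276 protein-coding genes of that level had 9.39%, 8.28% and 15.0%. The coefficient was largest in GFP High for 23 of the 40, in GFP Low for 5 and in RFP for 12. Usp11, an X-linked relative of Usp15, was at 37.9, 30.4 and 35.4 CPM in RFP 1, 2 and 3, 29.5, 34.5 and 35.9 in GFP Low 1, 2 and 3, and 25.6, 22.5 and 61.5 in GFP High 1, 2 and 3. GFP High 3 had the highest value of all 9 libraries and GFP High 2 the lowest. Usp5 reached 65.7 CPM in GFP High 1 and 34.2 in GFP High 2, with the other libraries between them, and Usp33, which acts at centrosomes, was at 34.1 CPM in GFP High 2 against 57.0 or more in all 8 others. Usp12 went from 3.40 CPM in GFP High 3 to 14.0 in GFP High 2. GFP High 2 was the lowest library for 18 of the 40 genes, and RFP 3 the highest for 13. The number of eggs in a pool was not separated from the reporter group, and its part in the spread was not tested.

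**Figure D5:**
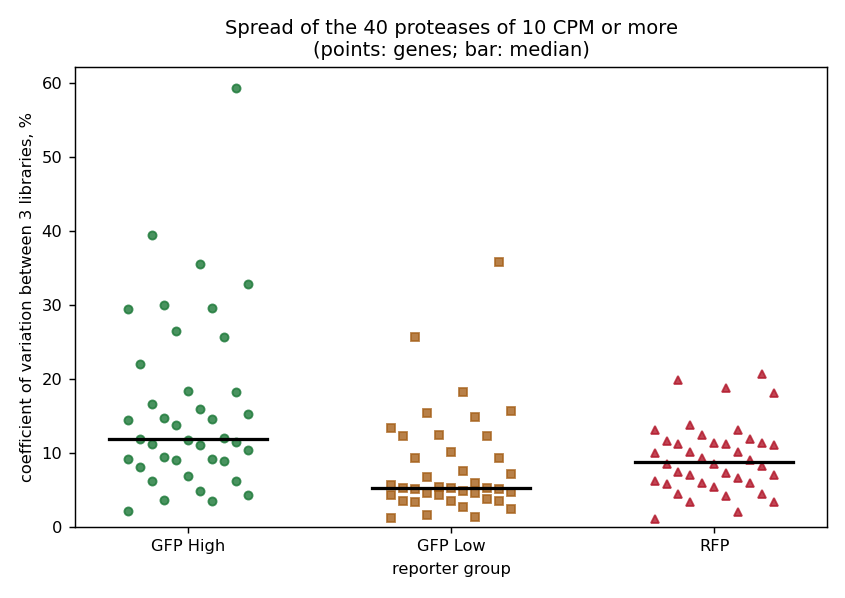
Coefficient of variation between the 3 libraries of each group, in percent, 1 point for each of the 40 proteases of 10 CPM or more, with a bar at the median. The median is 8.81% in RFP, 5.3% in GFP Low and 11.9% in GFP High.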

How the data were processed

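Poly-A RNA of 9 pooled oocyte libraries was sequenced in paired-end mode, per the labels. Reads were processed with fastp, aligned to mm10 with HISAT2 2.0.5, counted with featureCounts 1.5.0-p3 and tested with DESeq2 1.20.0, per the submitters' processing notes. The authors deposited raw counts of 6 libraries in each of 3 tables, a table per comparison, and only these counts entered the tests. The deposited tables also hold a normalised signal and FPKM values, used only as checks. The authors' deposited log2 fold changes, p-values and adjusted p-values are quoted only where their table is named.

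The tables were joined by gene ID into 30153 genes, and a gene missing from a table was set to 0 there. Each pair of groups was fitted on its 6 libraries with edgeR 4.0.16 in R 4.3.3 (filterByExpr, TMM factors, quasi-likelihood test, no covariate), with Benjamini-Hochberg adjustment over every gene tested and a threshold of 0.05. Standard errors and 95% intervals come from the F statistic of that test. Tests were run also on simulated data, with 200 genes changed 2-fold, all drawn from genes with a mean above 200 counts. The test recovered 92% in the GFP Low to RFP setting with 15 false calls, 63.5% between both GFP groups with 11, and 59.5% in the GFP High to RFP setting with 2. These shares do not apply to members with fewer counts. The simulation also changed 200 genes at once and gave both groups the same spread per gene. In the data 2, 3 and 0 genes were called (GFP High against RFP, GFP Low against RFP, both GFP groups), and the spread differed by group. With fewer changed genes the adjusted threshold is stricter, so the shares do not give the power to call a single changed member. Replicate libraries differed by 13.8 to 57.6 times the sampling noise (chi-square per degree of freedom), so all were kept as separate. Reads carry no molecular identifiers, so detection limits cover counting error alone. Same-numbered libraries showed no clear common deviation, and the numbers were not used as pairs.

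Genes were named by rule: those past a threshold in any comparison, the 12 with the highest level per length, the 3 largest differences among genes of 1 CPM or more in each comparison, and the members of the sets of related genes. Members whose libraries did not overlap between groups were named as well, after their values were seen. Gene positions matched GENCODE M21 (GRCm38) for 54 of 55 members, and promoters came from the RefSeq table of GRCm38.p6. The members and all lists were chosen with earlier results of these data known. Alternatives were DESeq2 1.42.0, limma-voom 3.58.1, other size factors, filters and pooled fits, and leaving out each library.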

Additional observations from a re-analysis of the deposited data

How the results depend on the processing

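Under all alternatives run (DESeq2, voom, other scaling, no filter, a minimum mean of 50 counts, protein-coding genes only, bias-adjusted deviances, all 9 libraries in one fit, the replicate block, and each library left out), 0 members passed the adjusted threshold in each comparison. The named fold changes kept their direction and their side of the threshold wherever they could be fitted, which leaves out Usp40 and Usp17le under a minimum mean of 50 counts. The ratios between related genes and the family's sums have no threshold. They were recomputed only on the authors' FPKM and with each library left out, and moved by less than 1 SD between libraries. For the sums, leaving out 1 of 3 libraries cannot move the mean further, and FPKM rests on the same counts. This is therefore no test of them. With 1 library left out the sum ran from 878.7 to 920.2 CPM per kb in RFP, 874.7 to 885.4 in GFP Low and 817.8 to 866.7 in GFP High. With the replicate number as a block, 0 members were called in each comparison. Same-numbered libraries correlated in their deviations at -0.018, -0.0652 and 0.00934 for GFP High against RFP, 0.0955, 0.0723 and -0.0577 between both GFP groups and 0.0616, -0.113 and 0.116 for GFP Low against RFP, so no clear common deviation was seen. Such values cannot show whether same-numbered libraries were collected together. The number of members at an unadjusted p under 0.05 did move. For GFP High against RFP it was 0 as reported, against 4.09% of all genes. It was 4 with all 9 libraries in one fit (7.84% of members, against 7.33% of all genes) or with no filter (7.41%, against 5.89%). It was 3 with voom (6%, against 5.23%), bias-adjusted deviances (6%, against 5.75%) or the replicate block (6%, against 3.68%), and 8 without GFP High 3 (16%, against 11.3%). Between both GFP groups it was 0 as reported, against 3.77%. It was 1 with DESeq2, bias-adjusted deviances or all 9 libraries, against 5.99%, 5.53% and 6.96% in turn, and 9 without GFP High 3 (17.6%, against 10.2%). For GFP Low against RFP it was 1 as reported, against 2.62%, and 0 to 2 otherwise, against 0.536% to 4.5%. Over all genes, adjusted calls rose from 2, 3 and 0 (GFP High against RFP, GFP Low against RFP, both GFP groups) to 12, 10 and 4 with DESeq2 and to 16, 34 and 16 with no filter, and to 4 with the block in the first. With 1 library left out, the log2 difference of Usp40 between GFP High and RFP ran from -8.79 to -2.06 and that of Usp17le between both GFP groups from -7.99 to -0.0071; the lowest values are fits without GFP High 3 against libraries at 0 counts and are no bounds. Without GFP High 2 the log2 difference of Usp29 went from 0.56 to 0.29 between both GFP groups and from 0.36 to 0.089 between GFP High and RFP. With 1 library left out, that of Usp17lc ran from 1.63 to 2.92 against RFP and from 1.07 to 2.25 against GFP Low. The ratio of Usp49 to Usp44 ran from 19.8 to 42.4 and that of Usp38 to Usp35 from 71.1 to 104.8. Depth limits what can be said of the 9 members under 1 CPM.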
